A study of Mus musculus with 6 samples.

Results

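Transcripts of 10 genes that govern the passage from G1 into S phase were examined. The libraries came from cells sorted as mouse haematopoietic stem cells (HSCs) with high or low surface CD38. The genes were the D-type cyclins Ccnd1, Ccnd2 and Ccnd3, the E-type cyclins Ccne1 and Ccne2, the cyclin-dependent kinases Cdk2, Cdk4 and Cdk6, and the transcription factor genes Myc and Mycn. They were chosen by symbol, and each matched 1 of the 49585 Ensembl identifiers in the count files. All 10 passed the filter on low counts, which left 14785 genes for testing. HSCs came from the bone marrow of untreated C57BL/6 mice aged 8 to 16 weeks. They were sorted as cells positive for Kit, Sca-1, CD150 and CD201 and negative for lineage markers, CD48 and CD34, and then divided by CD38, an enzyme that consumes NAD. The study compared 3 libraries labelled CD38 pos with 3 labelled CD38 neg by bulk RNA sequencing, each made from the pooled cells of 10 mice. The design text matches the libraries as 3 pairs and does not say if a pair shares mice.

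In the textbook model, mitogens and cytokines raise D-type cyclins, which bind CDK4 or CDK6 and begin the phosphorylation of the retinoblastoma protein. E-type cyclins with CDK2 complete it and release E2F transcription factors, which switch on genes of DNA replication. MYC and its relative MYCN drive growth and proliferation, and together they are needed for HSCs to proliferate and survive. HSCs are mostly quiescent, and CDK6 is known as a kinase whose low level keeps long-term HSCs slow to leave quiescence.

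Total counts ranged from 16771180 to 18558610 per library, and the members had between 132 and 17138 reads each in a library. Values are given as CPM, the read count relative to the library size after TMM scaling (trimmed mean of M-values). Cd38 itself was higher in the CD38-positive library of all 3 pairs. Its mean was 47.2 ± 10.7 CPM in these libraries and 27.9 ± 6.70 CPM in the CD38-negative ones (SD, n = 3 each, edgeR adjusted p = 0.893). All 9 HSC markers on a list (Kit, Ly6a, Slamf1, Procr, Mecom, Hlf, Meis1, Fgd5 and Hoxb5) were detected. Their summed level ranged from 447 to 871 CPM in CD38-positive and from 614 to 1414 CPM in CD38-negative libraries. The list was mixed, with 6 negative and 3 positive log2 fold changes (CD38-positive over CD38-negative), and none passed an edgeR adjusted p of 0.05. Kit (-0.90) and Meis1 (-0.63) had the highest mean levels and so weigh most in the sum. Slamf1, which encodes CD150, was higher in the CD38-positive library of all 3 pairs (0.45). All 14 granulocyte markers, among them S100a8 and Elane, were also detected. They summed to 71321 to 161723 CPM (7.13% to 16.2% of scaled counts), above the summed HSC markers in every library. HSC here names the sort, and the cell make-up of the libraries was not tested. The 8 B and plasma cell markers summed to 312 to 1011 CPM in CD38-positive and 1168 to 3511 CPM in CD38-negative libraries. In bulk samples of this kind, fewer cells of a type and less RNA per cell cannot be told apart.

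None of the 10 genes passed an adjusted p of 0.05 between the populations in edgeR's quasi-likelihood test with the pair as a block. DESeq2 and limma-voom called 0 of them as well, and 0 had an unadjusted p under 0.05 in edgeR. Among all tested genes 0.0135% passed the adjusted threshold and 5.08% had an unadjusted p under 0.05. The edgeR adjusted p-values of the members lay between 0.926 and 0.990, and their median log2 fold change, CD38-positive over CD38-negative, was 0.05 against 0.00 over all tested genes. Ccnd3 was higher in the CD38-positive library of all 3 pairs, Ccnd2 and Myc were lower in all 3, and the other 7 members differed in sign between pairs. That makes 3 of 10 members with 1 direction throughout (30.0%), beside 24.5% of all tested genes (13.2% higher and 11.3% lower throughout). No member had populations whose libraries did not overlap, which 6.53% of all tested genes did.

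**Figure D1:**
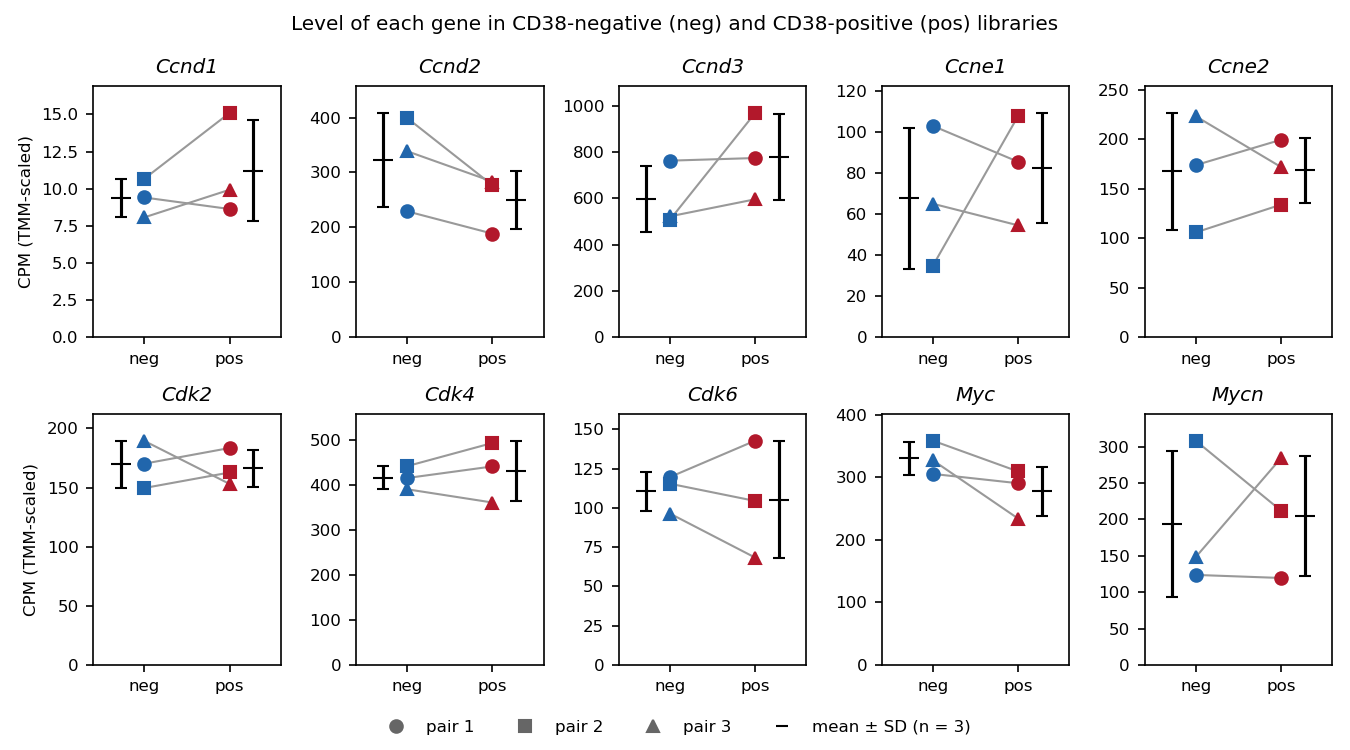
Each panel shows 1 gene, with the CPM of every library on a linear axis from 0, CD38-negative libraries in blue, CD38-positive libraries in red and lines joining the libraries of a pair; black bars give the mean and SD of 3 libraries. The CD38-positive end of all 3 lines is the lower one for Ccnd2 and Myc and the higher one for Ccnd3, but the populations overlap in every panel.

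Of the D-type cyclins, Ccnd3 and Ccnd2 each kept 1 sign in all 3 pairs, in opposite directions, and Ccnd1 did not. Ccnd3 (ENSMUSG00000034165, GRCm38 chr17:47505051-47599691, plus strand), the D cyclin best known from lymphoid and erythroid development, was at 775, 969.6 and 596 CPM in CD38-positive replicates 1, 2 and 3. It was at 763, 508 and 522 CPM in their CD38-negative partners. The CD38-negative library of pair 1 was thus above the CD38-positive library of pair 3. On the log2 scale the fold change was 0.38 (SE 0.22, 95% interval -0.10 to 0.86, edgeR adjusted p = 0.926), with pair differences of 0.02, 0.93 and 0.19. Pair 2 had the largest difference, and without that pair the log2 fold change was 0.09.

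Ccnd2 (ENSMUSG00000000184, chr6:127125162-127152193, minus strand), a cytokine-responsive D cyclin of blood cells, had the opposite sign. It was at 189, 277 and 283 CPM in the CD38-positive libraries and at 229, 399 and 339 CPM in the CD38-negative libraries of pairs 1, 2 and 3. The CD38-negative library of pair 1 was again the exception, below both the second and the third CD38-positive library. Its log2 fold change was -0.36 (SE 0.19, 95% interval -0.76 to 0.05, edgeR adjusted p = 0.926), and the pair differences of -0.28, -0.53 and -0.26 spread less than those of Ccnd3 and Myc. Of the members it had the smallest unadjusted p, 0.0811.

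Ccnd1 (ENSMUSG00000070348, chr7:144929931-144939925, minus strand), the D cyclin of many epithelial tissues, was scarce. Reads numbered 144, 267 and 180 in the CD38-positive libraries of pairs 1, 2 and 3, or 8.63, 15.1 and 9.93 CPM. Their partners had counts of 158, 192 and 132, or 9.41, 10.7 and 8.07 CPM. The CD38-positive library of pair 2 stood highest and the others overlapped. A log2 fold change of 0.23 had an interval from -0.34 to 0.79 (edgeR adjusted p = 0.943), and pair 1 had the opposite sign.

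Since the D cyclins bind the same kinases, their shares of the summed D cyclin reads per kilobase were also compared. Ccnd3 made up 80.1%, 77.2% and 67.8% in CD38-positive replicates 1, 2 and 3, and 76.7%, 56.4% and 61.2% in the CD38-negative partners. Ccnd2 made up 18.2%, 20.6% and 30.1% against 21.5%, 41.3% and 37.0%, while Ccnd1 stayed between 1.66% and 2.24%. The balance therefore lay further towards Ccnd3 in the CD38-positive library of every pair, by 3.39, 20.8 and 6.60 percentage points. With so little Ccnd1, this restates the opposite directions of Ccnd3 and Ccnd2 given above and is no further support. The shares of Ccnd3 and Ccnd2 are near mirror images, though counted as separate tests. The exact permutation test that swaps populations within pairs gave a two-sided p of 0.25, the smallest that 3 pairs allow, and 0.75 after Benjamini-Hochberg adjustment over the 7 such tests made. The Ccnd3 share also differed between pairs within a population, from 56.4% to 76.7% among the CD38-negative libraries.

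**Figure D2:**
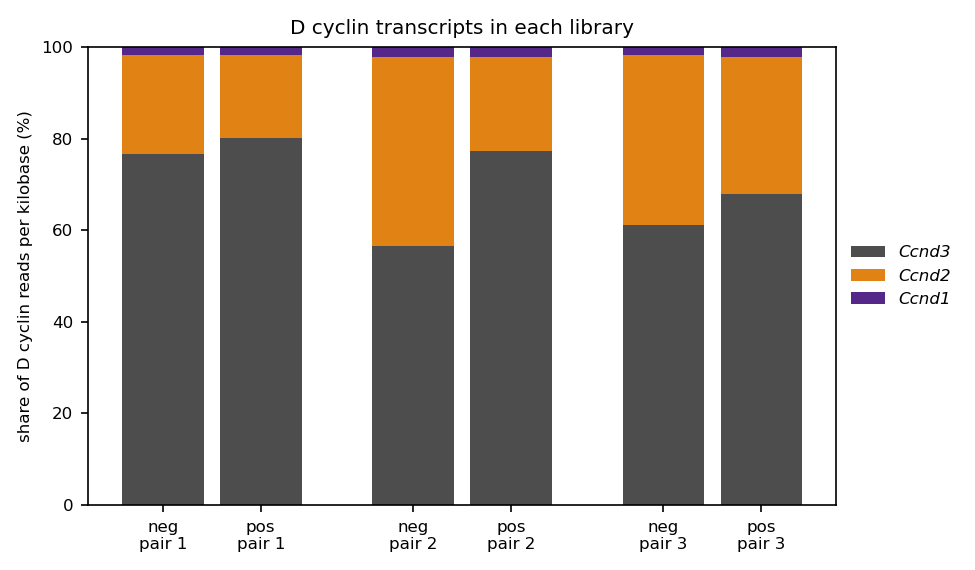
Stacked bars give the share of each D cyclin, in percent of the summed reads per kilobase of Ccnd1, Ccnd2 and Ccnd3, for the CD38-negative (neg) and CD38-positive (pos) library of each pair. The Ccnd3 part is taller in the CD38-positive bar of each pair, from 80.1% against 76.7% in pair 1 to 77.2% against 56.4% in pair 2.

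The kinase partners of the D cyclins, Cdk4 and Cdk6, each differed in sign between pairs. Cdk4 (ENSMUSG00000006728, chr10:127063534-127067920, plus strand) was at 442, 494 and 362 CPM in the CD38-positive libraries of pairs 1, 2 and 3. The CD38-negative libraries had 416, 443 and 391 CPM, all inside the CD38-positive range. It had a log2 fold change of 0.04 (SE 0.19, 95% interval -0.37 to 0.45, edgeR adjusted p = 0.982). Over the 6 libraries the SD of its log2 CPM was 0.16, at the 8.28th percentile of all tested genes.

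Cdk6 (ENSMUSG00000040274, chr5:3341485-3531008, plus strand) was at 143, 104 and 68.3 CPM in the CD38-positive libraries and at 119.6, 115 and 96.4 CPM in the CD38-negative libraries. The CD38-positive libraries held both the highest and the lowest value, and the pair differences of 0.26, -0.14 and -0.50 spanned zero. Its fitted log2 fold change was -0.13 (SE 0.20, 95% interval -0.55 to 0.30, edgeR adjusted p = 0.958). Of the summed Cdk4 and Cdk6 reads per kilobase, the Cdk6 share was 5.28% ± 1.48 in the CD38-positive and 5.79% ± 0.429 in the CD38-negative libraries (SD, n = 3 each, exact permutation p = 0.5, two-sided, 0.75 adjusted).

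Cdk4 is a textbook target of MYC, which binds the E-box CACGTG, a word that reads the same on both strands. RefSeq promoter windows, from 250 bases before to 50 after a start site on GRCm38.p6, were at hand for 6 of the 10 members (Ccnd3, Ccne1, Cdk2, Cdk4, Cdk6 and Mycn). Those of Ccnd1, Ccnd2, Ccne2 and Myc were not analysed here. The Cdk4 window held 4 E-boxes, beginning at -172, -118, -98 and -11 from the start site, while 7.15% of all 32851 windows held at least 1 and 0.0244% held at least 4. The Cdk6 window held 1, and the other 4 members had none. The Cdk4 window is shown because MYC and this kinase are measured side by side here, up to the first annotated exon (chr10:127063285-127063533, plus strand), with the E-boxes in capitals.
Cdk4: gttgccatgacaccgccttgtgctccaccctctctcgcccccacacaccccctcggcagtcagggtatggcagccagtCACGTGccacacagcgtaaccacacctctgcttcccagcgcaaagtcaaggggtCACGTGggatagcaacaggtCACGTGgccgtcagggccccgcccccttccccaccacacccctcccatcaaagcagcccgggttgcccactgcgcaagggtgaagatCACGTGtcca

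Neither E-type cyclin kept 1 sign in all 3 pairs. Ccne1 (ENSMUSG00000002068, chr7:38097984-38107534, minus strand), an E2F target and the partner of CDK2, was at 85.7, 108 and 54.6 CPM in CD38-positive replicates 1, 2 and 3. It was at 103, 34.9 and 65.2 CPM in the CD38-negative partners. The CD38-negative library of pair 2 held the lowest value of the 6 and its CD38-positive partner the highest, 3.10-fold apart. The pair differences were -0.27, 1.63 and -0.25, so that 2 of 3 pairs went against the fitted log2 fold change of 0.35 (SE 0.31, 95% interval -0.32 to 1.02, edgeR adjusted p = 0.936). Without pair 2 it was -0.27.

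Ccne2 (ENSMUSG00000028212, chr4:11191351-11204779, plus strand), the second E-type cyclin, was at 199, 134 and 172 CPM in the CD38-positive libraries. The CD38-negative libraries had 174, 106 and 223 CPM, and both libraries of pair 2 were below the other 4. Its log2 fold change was 0.05 (SE 0.20, 95% interval -0.38 to 0.49, edgeR adjusted p = 0.981), with pair 3 of opposite sign at -0.38. Ccne1 and Ccne2 thus differed in the CD38-positive library of pair 2, which had the highest Ccne1 and the second lowest Ccne2.

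Cdk2 (ENSMUSG00000025358, chr10:128697939-128705031, minus strand), the kinase both E cyclins activate, was the steadiest member. It ranged from 149.6 CPM in the CD38-negative library of pair 2 to 189 CPM in that of pair 3, with the CD38-positive libraries at 183, 163 and 153 CPM between them. The SD of its log2 CPM was 0.14, at the 5.30th percentile of all tested genes. A log2 fold change of -0.03 was fitted (SE 0.19, 95% interval -0.43 to 0.38, edgeR adjusted p = 0.990).

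**Figure D3:**
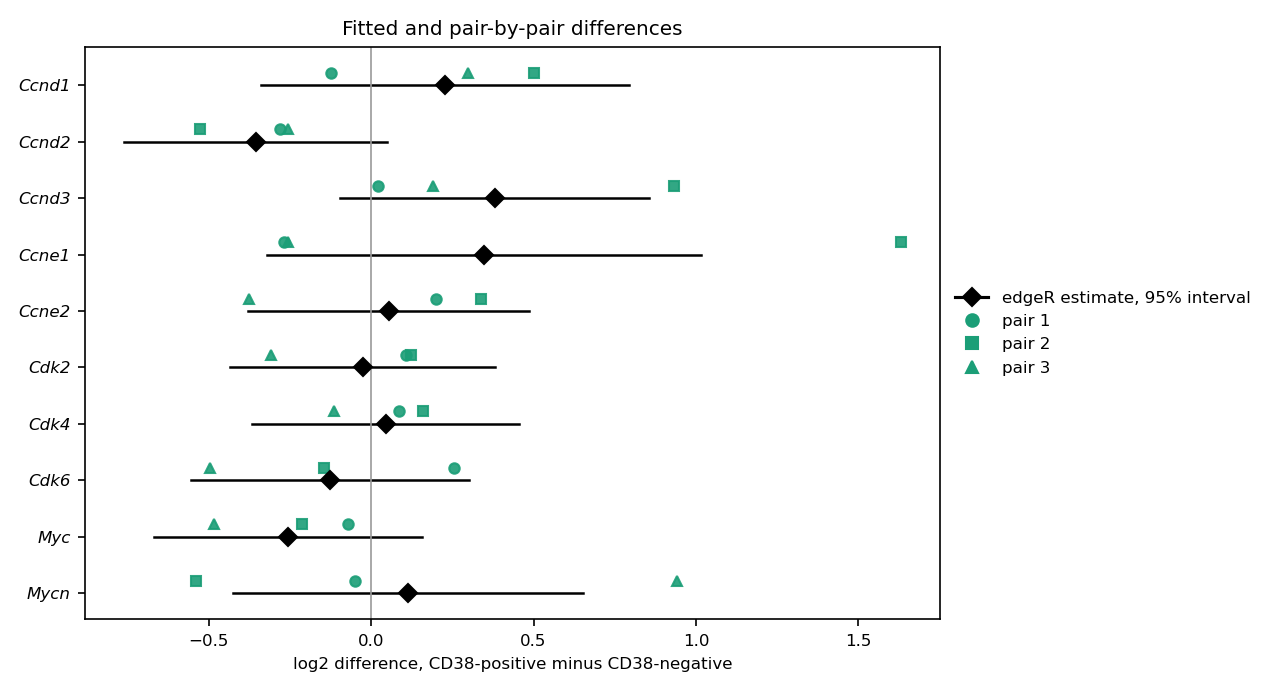
For each gene the black diamond and line give the edgeR log2 fold change with its 95% interval, and green symbols the log2 difference within each pair, CD38-positive minus CD38-negative. All 10 intervals cover 0, and 4 pair values lie outside the interval of their fit, those of pair 2 for Ccne1 (1.63), Ccnd3 (0.93) and Mycn (-0.54) and of pair 3 for Mycn (0.94).

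Myc (ENSMUSG00000022346, chr15:61985391-61990374, plus strand) was lower in the CD38-positive library of each pair. It was at 291, 309 and 234 CPM in CD38-positive replicates 1, 2 and 3, and at 305, 359 and 327 CPM in their partners. Of the CD38-positive libraries, that of pair 2 alone was above a CD38-negative library, that of pair 1. The log2 fold change was -0.26 (SE 0.19, 95% interval -0.67 to 0.16, edgeR adjusted p = 0.932), and the pair differences were -0.07, -0.21 and -0.48.

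Mycn (ENSMUSG00000037169, chr12:12936093-12941914, minus strand) varied more between libraries than Myc. It was at 119, 212 and 284 CPM in the CD38-positive libraries and at 124, 308 and 148 CPM in the CD38-negative libraries. In pair 1 the populations were alike, in pair 2 the CD38-negative library was higher, and in pair 3 the CD38-positive library was higher, with pair differences of -0.05, -0.54 and 0.94. The log2 fold change of 0.11 (SE 0.25, 95% interval -0.43 to 0.65, edgeR adjusted p = 0.967) averaged over these. The SD of its log2 CPM was 0.60, at the 83.0th percentile of all tested genes, against 0.21 and the 18.8th percentile for Myc. As a share of summed Myc and Mycn reads per kilobase, a measure added after the values were seen, Mycn ran from 25.0% to 50.001%. The mean difference of 5.93 percentage points between populations had an exact permutation p of 0.75 (two-sided, 0.75 adjusted).

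The E2F sites of the Mycn promoter are well known, and its window is shown because Mycn was the second most variable member. An E2F site was searched as TTTCCCGC, TTTGGCGC, TTTCGCGC or TTTGCCGC on both strands. The Mycn window held 3 matches, beginning at -183, -179 and -168 from the RefSeq start, of which the first and the second overlap. At least 1 match was held by 2.26% of all windows and at least 3 by 0.0122%. Cdk2 had 1 match, and the windows of Ccnd3, Ccne1, Cdk4 and Cdk6 had none. The stretch before the first annotated exon (chr12:12941915-12942086, minus strand) is printed with the matches in capitals.
Mycn: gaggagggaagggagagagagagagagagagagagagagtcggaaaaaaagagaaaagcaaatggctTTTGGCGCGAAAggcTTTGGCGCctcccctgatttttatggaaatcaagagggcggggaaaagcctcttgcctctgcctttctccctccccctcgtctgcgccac

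Levels of different genes were compared per length, as CPM per kilobase of merged exons (RPKM). Over the 6 libraries Cdk4 was highest at 131 ± 14.2 RPKM (SD, n = 6), followed by Myc at 112 ± 15.3, Ccnd3 at 78.5 ± 20.4 and Mycn at 60.5 ± 25.0. Ccne2 followed at 48.1 ± 12.2, Ccnd2 at 30.4 ± 8.01, Ccne1 at 28.3 ± 10.8 and Cdk2 at 27.0 ± 2.58 RPKM. Cdk6 at 7.71 ± 1.79 and Ccnd1 at 2.19 ± 0.537 RPKM were the lowest, each below its upper neighbour in 6 of 6 libraries. Myc was above Ccnd3 in 6 of 6 libraries too. The other neighbours did not keep their order: Cdk4 was above Myc in 5 of 6, Ccnd3 above Mycn in 4, Mycn above Ccne2 in 3, and Ccnd2, Ccne1 and Cdk2 changed places in 3 of 6 each. The order rests on the gene model. With the longest transcript as the length, Ccnd3 (179) stood above Myc (130.1) and Cdk2 (51.5) above Ccnd2 (45.2), while Cdk4 stayed first and Cdk6 and Ccnd1 last.

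**Figure D4:**
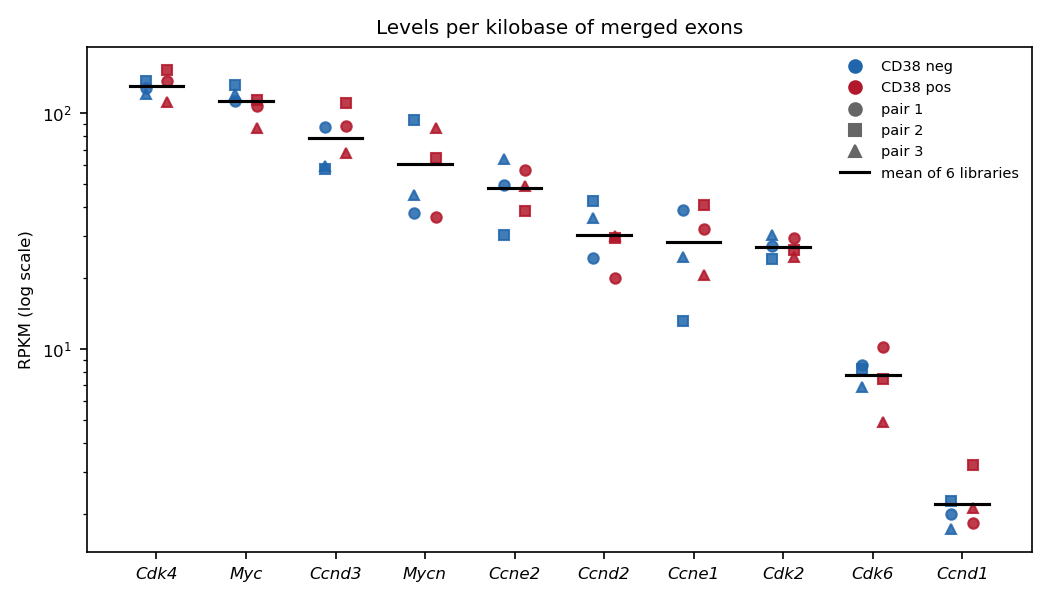
Points give RPKM of each library on a log axis, with genes ordered by the mean of 6 libraries (black line), CD38-negative libraries in blue and CD38-positive in red, and 1 symbol per pair. Cdk4 and Myc lie near the top at means of 131 and 112, and Cdk6 and Ccnd1 lie apart at 7.71 and 2.19.

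Several members share exon sequence with a gene on the opposite strand, and the strand setting of the counting is not given in the sources used here, so reads of the shared part are uncertain. The shared part was 23.4% of the merged exons of Ccnd1 (with LTO1, mean 22.7 CPM), 19.7% of Cdk4 (Tspan31, 114 CPM), 17.4% of Ccne2 (Ints8, 56.4 CPM), and at most 4.11% for each partner of the others. Ccne1, Myc and Mycn had no such partner in GENCODE M21.

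The rest of the G1 pathway was read from 8 lists with 114 tested genes. None of these 114 genes passed an adjusted p of 0.05 in edgeR, DESeq2 or limma-voom, and 5 had an unadjusted edgeR p under 0.05 (Cdkn1c, E2f3, Ccna2, Aurkb and Cenpe). That is 4.39% of the 114, beside 5.08% of all tested genes. Without the pair as a block 1 of the 5, E2f3, did. Of the CDK inhibitors and pocket proteins, 8 of 10 were tested, with 4 positive and 4 negative fold changes and a median of 0.03. The inhibitors restrain the kinases above. Cdkn2a had no reads in any library and Cdkn2b at most 3. Cdkn1c (p57), an inhibitor linked to HSC quiescence, was at 4.22 CPM in CD38-positive and 2.39 CPM in CD38-negative libraries, higher in all 3 pairs (log2 fold change 0.89, edgeR adjusted p = 0.926). Cdkn1a (p21) was also higher in all 3 pairs, with a log2 fold change of 0.40 and an adjusted p of 0.930 in edgeR, and Cdkn2d had 0.23. Of 10 E2F and DP factors, 6 had positive and 4 negative fold changes. E2f3, an activating E2F, was at 11.0 against 17.1 CPM and lower in all 3 pairs (log2 fold change -0.65, edgeR adjusted p = 0.925), while its dimer partner gene Tfdp1 had 0.36 and E2f5 had -0.44.

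The 10 genes of CDK activators and inhibitory kinases had a median log2 fold change of 0.12, led by the phosphatase gene Cdc25b at 0.58, with pair differences of -0.14, 1.51 and 0.38. Among 11 genes of the ubiquitin pathway that acts on G1 cyclins and MYC, the median was -0.09. Fzr1, which encodes the APC/C activator CDH1, had 0.35 and was higher in all 3 pairs, Skp1a had -0.33 and Rbx1 -0.30. The MYC partners and antagonists had 9 positive and 2 negative fold changes of 11, with a median of 0.22. Mxd1, which encodes a MAX-binding repressor that opposes MYC, was at 212 against 169 CPM and higher in all 3 pairs (log2 fold change 0.35), Max had 0.48 and the repressor gene Mnt -0.43. The 20 MYC targets, mostly genes of ribosome and nucleotide synthesis, were split 10 to 10 with a median of -0.01. The 3 with the smallest p-values were Fbl at -0.47, Bop1 at 0.34 and Nop16 at -0.33.

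Genes downstream of the G1 kinases differed most in pair 2. Of 24 E2F target and S phase genes, 17 had positive fold changes, with a median of 0.17, and all 20 G2 and mitosis genes did, with a median of 0.32; over all tested genes 50.1% were positive and the median was 0.00. In pairs 1, 2 and 3 the medians were 0.07, 0.59 and -0.16 for the S phase genes and 0.09, 0.97 and -0.21 for the G2 and mitosis genes. Ccna2, which encodes cyclin A2, was at 519 against 337 CPM (log2 fold change 0.61, edgeR adjusted p = 0.926), with 1.61 in pair 2 and 0.16 and 0.10 in pairs 1 and 3. Cdt1 and Cdc45, both for replication origins, had 0.40 and 0.30, and the mitotic genes Aurkb, Cenpe and Nusap1 had 0.49, 0.59 and 0.46. The G2 and mitosis genes summed to 4136, 3496 and 2565 CPM in CD38-positive replicates 1, 2 and 3 and to 3764, 1867 and 2774 CPM in the partners (exact permutation p = 0.5, two-sided). The S phase genes summed to 6804, 7206 and 4533 against 6499, 4473 and 4946 CPM (exact permutation p = 0.75, two-sided). Both p-values were 0.75 after adjustment over the 7 tests. Without pair 2 the mean differences were 81.2 CPM for the G2 and mitosis genes and -54.0 CPM for the S phase genes.

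Members were set library by library beside these sums. Ccne1 and Ccnd3 stood on the same side of their means as the G2 and mitosis list in 6 of 6 libraries. The HSC markers shared their side in 0. The sums of both lists stood on opposite sides in all 6 libraries, so a count for either list fixes the count for the other. How many of all tested genes reach such counts was not examined. Ccnd2 stood on the side of the HSC markers in 6 of 6 libraries and of the G2 and mitosis list in 0. In the CD38-positive library of pair 2, however, Ccnd2 was almost at its mean (-0.00436), where the HSC markers stood at -0.55. Mycn shared the side of the HSC markers in 4 libraries and of the G2 and mitosis list in 2, and the other members shared either side in 2 to 4. In the CD38-negative library of pair 2, log2 Ccne1 was 1.01 below its mean over the 6 libraries (-1.01) and the summed G2 and mitosis list stood at -0.68, while Mycn, Ccnd2 and the summed HSC markers stood at 0.73, 0.52 and 0.99. In the CD38-positive library of pair 1 the signs were turned, with Ccne1 at 0.29 and the G2 and mitosis list at 0.47, against -0.63, -0.56 and -0.67 for Mycn, Ccnd2 and the HSC markers. The CD38-positive library of pair 3 had Mycn at 0.62 and the HSC markers at 0.29, but Ccnd2 at 0.03. Mycn and the HSC markers stood on opposite sides in the CD38-positive library of pair 2, at 0.19 and -0.55, and in the CD38-negative library of pair 3, at -0.32 and 0.16. The summed HSC markers differed by -0.46, -1.54 and 0.14 between the populations in pairs 1, 2 and 3 on the log2 scale, beside -0.05, -0.54 and 0.94 for Mycn. The granulocyte markers differed by 0.47, -0.18 and -0.47. The part of these marker levels in the values of the members was not tested.

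**Figure D5:**
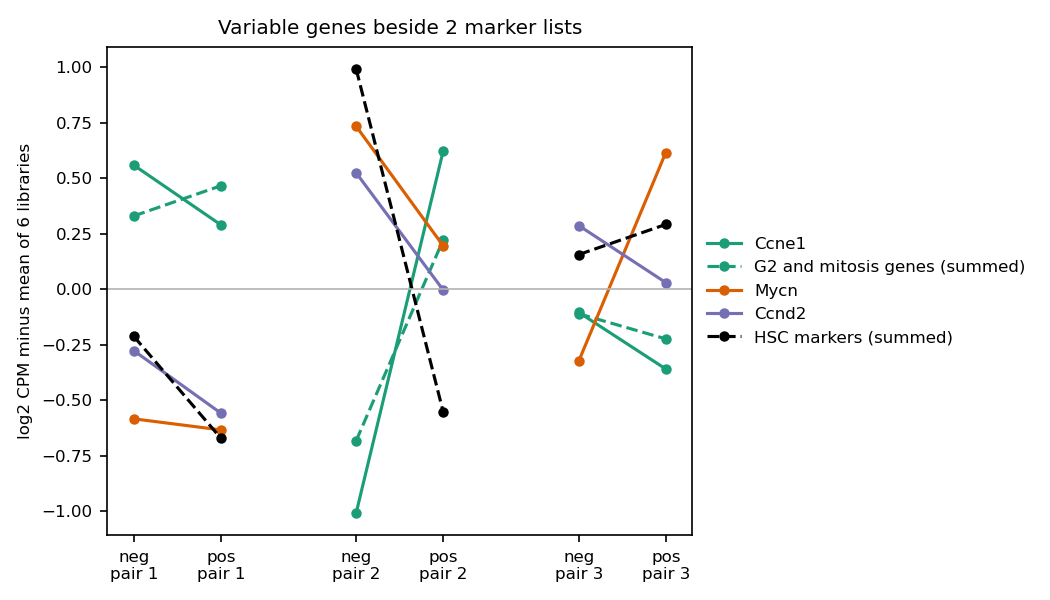
Lines join the CD38-negative (neg) and CD38-positive (pos) library of each pair, and the vertical axis gives log2 CPM minus its mean over the 6 libraries, for 3 members (solid) and for the summed HSC markers and G2 and mitosis genes (dashed). In pair 2 Ccne1 stands at -1.01 in the CD38-negative and 0.62 in the CD38-positive library, while Mycn, Ccnd2 and the HSC markers are lower in the CD38-positive library.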

How the data were processed

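The authors deposited unnormalized read counts by Ensembl identifier, in 1 headerless file for each of 6 libraries. The submitters' processing notes name cutadapt, STAR and HTSeq 0.6.1p1 and the builds GRCm38 and mm10; annotation release and strand setting are not given in the sources used here. Symbols matched 49326 of 49585 identifiers; positions and lengths came from GENCODE M21 (GRCm38).

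Analyses used R 4.3.3. Genes kept by filterByExpr were scaled by TMM and tested with edgeR 4.0.16 (quasi-likelihood, pair plus population, Benjamini-Hochberg over 14785 genes, threshold 0.05). Pair differences of members are log2 ratios of CPM; for other genes a prior count of 2 was added. The pairs come from the series' design text, and within pairs 1, 2 and 3 the libraries deviated together from the population mean (r = 0.341, 0.118 and 0.24 across genes), each over 0.1, so the pair was kept as a block. Unmatched libraries gave -0.423 to 0.151, and CD38-negative replicate 2 correlated more with CD38-positive replicate 3 (0.151) than with its partner. No library was a repeat of another: chi-square divided by its degrees of freedom was 51.5 to 116 within and 20.5 to 135 between the populations. On simulated counts for these 14785 genes, 44 of 100 genes changed 2-fold and 95 of 100 changed 4-fold were called, with 5 unchanged genes. The changed genes were drawn only from those above a minimum mean count, with the dispersions estimated in the fit. Far more genes were changed than passed in the real data, which eases the adjusted threshold, so the rate in these data can be lower. Counting intervals and floors cover counting error only: 3 counts correspond to 0.166 to 0.183 CPM. P-values of the fits with the block and of the exact tests within pairs measure how the population difference varies from pair to pair. Those without the block measure the spread between pools of mice. Alternatives were the fit without the block, DESeq2 1.42.0, limma-voom (limma 3.58.1), other scalings and filters, a threshold of 0.1 and libraries left out.

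Members and lists were chosen with earlier results of these data known, and 1 gene of the HSC marker list is not reported here and was left out of its sums. Named genes were the 10 members, Cd38, up to 3 genes per pathway list by unadjusted p, and genes of like pattern.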

Additional observations from a re-analysis of the deposited data

How the results depend on the processing

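In 160 alternative fits of the 10 members, 0 passed the threshold (smallest adjusted p 0.676) and 19 had the other sign, all of them where a pair or a library was left out; the added fits that left out 1 library had no replicate block. Without the replicate block and with all libraries kept, the log2 fold changes were 0.26 for Ccnd1, -0.37 for Ccnd2, 0.38 for Ccnd3, 0.29 for Ccne1, 0.01 for Ccne2, -0.03 for Cdk2, 0.05 for Cdk4, -0.07 for Cdk6, -0.25 for Myc and 0.09 for Mycn, and no call changed. Ccnd2 (-0.57 to -0.19), Ccnd3 (0.09 to 0.60) and Myc (-0.35 to -0.14) kept their sign whichever pair or library was left out. With a pair left out, the sign follows from their single direction in all 3 pairs, so it adds no support. With 1 library left out and no block, the values of opposite sign were -0.0159 for Ccnd1, -0.0243 for Ccne1, -0.146, -0.237 and -0.00707 for Ccne2, 0.0297 and 0.0579 for Cdk2, -0.052 for Cdk4, 0.164 for Cdk6, and -0.159, -0.22 and -0.0735 for Mycn. With a pair left out, the range was 0.08 to 0.40 for Ccnd1, -0.41 to -0.28 for Ccnd2, 0.09 to 0.56 for Ccnd3, -0.27 to 0.69 for Ccne1, -0.102 to 0.27 (-0.0195 without pair 1) for Ccne2, -0.11 to 0.11 for Cdk2, -0.0255 to 0.12 for Cdk4, -0.32 to 0.0548 for Cdk6 and -0.30 to 0.43 for Mycn. Over all genes, 2 passed the threshold; the number was 0 without the replicate block (417 at an unadjusted p under 0.05) and with unscaled totals (595), 11 with DESeq2, 7 with DESeq2 size factors and at a threshold of 0.1, 80 with no filter, 13 with a mean of at least 10 counts, 2 to 41 without 1 pair (41 without pair 2) and 0 without 1 library and no block. For these counts and for the values of opposite sign the cause was not tested. The share of Ccnd3 differed by 4.9997 to 13.7 percentage points with a pair left out, Ccnd2 by -13.9 to -5.12, Ccnd1 by -0.0334 to 0.187, Cdk6 by -1.12 to -0.155 and Mycn by -2.53 to 11.6; the summed S phase genes differed by -54.0 to 1519 CPM and the G2 and mitosis genes by 81.2 to 1000.3 CPM. Without the block the exact permutation p of the Ccnd3 share was 0.2, where 0.1 is the smallest possible. With 3 pairs, 44 of 100 simulated 2-fold changes were called in the favourable setting described above, so changes of that size can be missed.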

Other observations

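Genes of like pattern were sought for the 3 members with the largest SD of log2 CPM over the 6 libraries, by the root mean square difference of mean-centred log2 CPM among 8723 other genes with a mean of at least 10 CPM. Nearest to Ccne1 (SD 0.62) were Golm1 at 0.14, and Ncapg, a condensin subunit gene used in mitosis, and Optn at 0.17 each. Nearest to Mycn (SD 0.60) were Clip3 at 0.09, Trib3, a pseudokinase gene of the stress response, at 0.11 and Kctd5 at 0.12. Nearest to Ccne2 (SD 0.39) were Phactr4 at 0.06, and Ube2q1 and Far2 at 0.08 each. With 6 libraries in 3 pairs these distances describe the libraries only.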
